A study of Mus musculus with 16 samples.

Results

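The transcripts described here belong to 8 genes of hexosamine and nucleotide sugar metabolism in mouse liver: Pgm3, Gfpt1, Gnpnat1, Uap1, Ugp2, Ugdh, Galk1 and Cmah. They are 8 of the 25006 gene identifiers in the count table, and all 8 were among the 13180 genes that passed the filter on low counts. The genes were chosen with measured values of these same libraries over all 4 groups in view. Their levels and fold changes are therefore given as a description, with no test. All animals were C57BL/6 mice, an inbred laboratory strain, and liver tissue was taken 4 h after 1 oral gavage. The 4 groups were chow slurry with control drinking water (chow control), fast food slurry with control drinking water (fast food control), chow slurry with antibiotic drinking water (chow antibiotic) and fast food slurry with antibiotic drinking water (fast food antibiotic). Each group held 4 libraries. The sources used here do not name the antibiotics, their doses, the length of treatment or the age and sex of the mice. Nor do the labels state whether replicates came from separate mice, so p-values measure only the spread between these samples.

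Nucleotide sugars are the activated donors from which cells build glycans. In the hexosamine pathway GFPT1 converts fructose-6-phosphate and glutamine to glucosamine-6-phosphate, GNPNAT1 acetylates it, PGM3 moves the phosphate group and UAP1 joins the product to a uridylyl group from UTP to give UDP-GlcNAc, the donor for N-glycans, O-GlcNAc and sialic acid synthesis. UGP2 makes UDP-glucose for glycogen and glycolipids, and UGDH oxidises it to UDP-glucuronate, which hepatocytes use to conjugate bilirubin and drugs. GALK1 phosphorylates galactose at the entry of the Leloir pathway, which links dietary galactose to the nucleotide sugars. CMAH hydroxylates CMP-N-acetylneuraminate to the N-glycolyl form of sialic acid. The spliced form of XBP1, a transcription factor of the endoplasmic reticulum stress response, is known to activate several genes of the hexosamine pathway.

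Sequences upstream of the genes are shown because 3 of them, Pgm3, Galk1 and Cmah, shared a lower level in the chow antibiotic group, while Gfpt1 and Uap1 of the same pathway as Pgm3 did not. They are the 250 bases before the start site in RefSeq (GRCm38.p6), read 5′ to 3′ on the strand of the gene. Capitals mark matches, on both strands, to the E-box CACGTG, the CCAAT box CCAAT, the GC box GGGCGG or the unfolded protein response element core TGACGTGG. Matches may overlap. The Pgm3 window lies at chr9:86571843-86572092 (minus strand), Gfpt1 at chr6:87042596-87042845 (plus), Uap1 at chr1:170174965-170175214 (minus), Galk1 at chr11:116012720-116012969 (minus) and Cmah, at the first of its RefSeq starts, at chr13:24327154-24327403 (plus).
Pgm3: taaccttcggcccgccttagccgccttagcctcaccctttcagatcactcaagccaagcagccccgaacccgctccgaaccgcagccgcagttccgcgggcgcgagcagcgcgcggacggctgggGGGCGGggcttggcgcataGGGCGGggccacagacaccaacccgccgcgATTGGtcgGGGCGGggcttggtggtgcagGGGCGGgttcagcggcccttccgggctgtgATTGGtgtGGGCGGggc
Gfpt1: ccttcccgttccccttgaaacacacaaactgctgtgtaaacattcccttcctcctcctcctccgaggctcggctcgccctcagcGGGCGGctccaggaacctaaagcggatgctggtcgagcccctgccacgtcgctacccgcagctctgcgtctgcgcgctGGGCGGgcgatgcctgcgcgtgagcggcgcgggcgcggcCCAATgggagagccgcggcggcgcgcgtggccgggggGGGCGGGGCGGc
Uap1: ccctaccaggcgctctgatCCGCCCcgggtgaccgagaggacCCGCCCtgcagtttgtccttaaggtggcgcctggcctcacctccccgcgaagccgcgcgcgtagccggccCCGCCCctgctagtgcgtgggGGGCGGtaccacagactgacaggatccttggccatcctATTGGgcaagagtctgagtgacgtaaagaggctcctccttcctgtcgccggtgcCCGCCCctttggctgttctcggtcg
Galk1: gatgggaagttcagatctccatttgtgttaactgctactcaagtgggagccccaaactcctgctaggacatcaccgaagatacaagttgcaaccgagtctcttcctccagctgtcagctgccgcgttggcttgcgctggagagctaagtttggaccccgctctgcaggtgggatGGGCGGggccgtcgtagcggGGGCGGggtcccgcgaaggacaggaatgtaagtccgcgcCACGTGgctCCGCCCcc
Cmah: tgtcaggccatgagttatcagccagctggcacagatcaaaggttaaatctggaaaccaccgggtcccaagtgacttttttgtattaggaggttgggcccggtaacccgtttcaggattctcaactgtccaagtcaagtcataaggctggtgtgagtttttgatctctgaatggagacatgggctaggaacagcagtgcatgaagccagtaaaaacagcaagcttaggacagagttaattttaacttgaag

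The table of RefSeq windows matched 7 of the 8 genes, with 9 windows between them. Ugp2 and Cmah gave 2 windows each. GC boxes stood in 7 of these 9 windows, against 32.7% of 32851 windows of the same length. Those 7 had a GC content of 60.8% to 73.6%, above the median of 52.4% over all windows, and the background was not matched for it. A CCAAT box was found in 5 of the 9, against 33.8%. Pgm3 had 5 GC boxes and 2 CCAAT boxes, Uap1 had 5 and 1, and Gfpt1 had 4 and 1. The Galk1 window held 3 GC boxes and the only E-box among the 9 windows, a motif present in 6.02% of all windows. The printed Cmah window held none of these letters, and its GC content of 45.6% was below the median of 52.4% over all windows, whereas that of Pgm3 was 71.6%. No window of the 7 genes matched TGACGTGG, found in 0.563% of all windows, or an ER stress element (CCAAT, 9 bases, CCACG), found in 0.113%. The printed windows of Pgm3, Galk1 and Cmah thus differed among themselves in base composition and in these letters. The second Cmah window held 1 CCAAT box, with a GC content of 49.6%. Which start these libraries used, and any part of these letters in the levels, was not tested.

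Total counts were 8954378 to 18954655 per library. Hepatocyte markers were present in every library, with 6 markers summing to at least 82411 CPM, the count scaled to a common library size. Libraries stood apart in 3 ways. On the first principal component fast food antibiotic replicate 2 lay at 45.4, within the range of the chow antibiotic libraries (36.5 to 74.1), while the other 3 of its group lay between -16.1 and -10. Its 10 acute phase genes summed to 35784 CPM, the highest of the 16 libraries. Chow antibiotic replicate 4 (35367 CPM) and chow control replicate 2 (20887 CPM) were the highest of their own groups, and these 3 libraries were left out together as an alternative. The set is not the 3 highest of the 16 libraries, since chow antibiotic replicates 1 and 2 were at 24120 and 26608 CPM. Lars2, Mir6236, Gm20594 and Mir6240, which take rRNA-like reads, together held under 1% of counts in 9 libraries (at most 0.587%) and 2.45% or more in 7. The low ones included the whole fast food control group but, of the fast food antibiotic group, only replicate 3, so after fast food the share moved with the water. The 7 libraries with a high share had totals of 8954378 to 15094803 counts, and the 9 with a low share 18102482 to 18954655. Depth thus moved with the share and, after fast food, with the water. In bulk tissue, fewer cells of a type and less RNA per cell cannot be told apart.

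Levels between genes were compared as CPM per kilobase of merged exons (RPKM). Ugp2 was the most abundant of the 8 in every group, with group means of 106 to 165 RPKM. Galk1 followed in each group, with means of 18.3 to 42.0 RPKM. Gnpnat1 was the least abundant, between 0.818 and 1.24 RPKM, and Gfpt1 the next, between 2.27 and 3.53 RPKM. Pgm3, Uap1, Ugdh and Cmah had means between 4.32 and 15.9 RPKM. All values below are in CPM, scaled with TMM factors, and compare a gene with itself across groups.

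**Figure D1:**
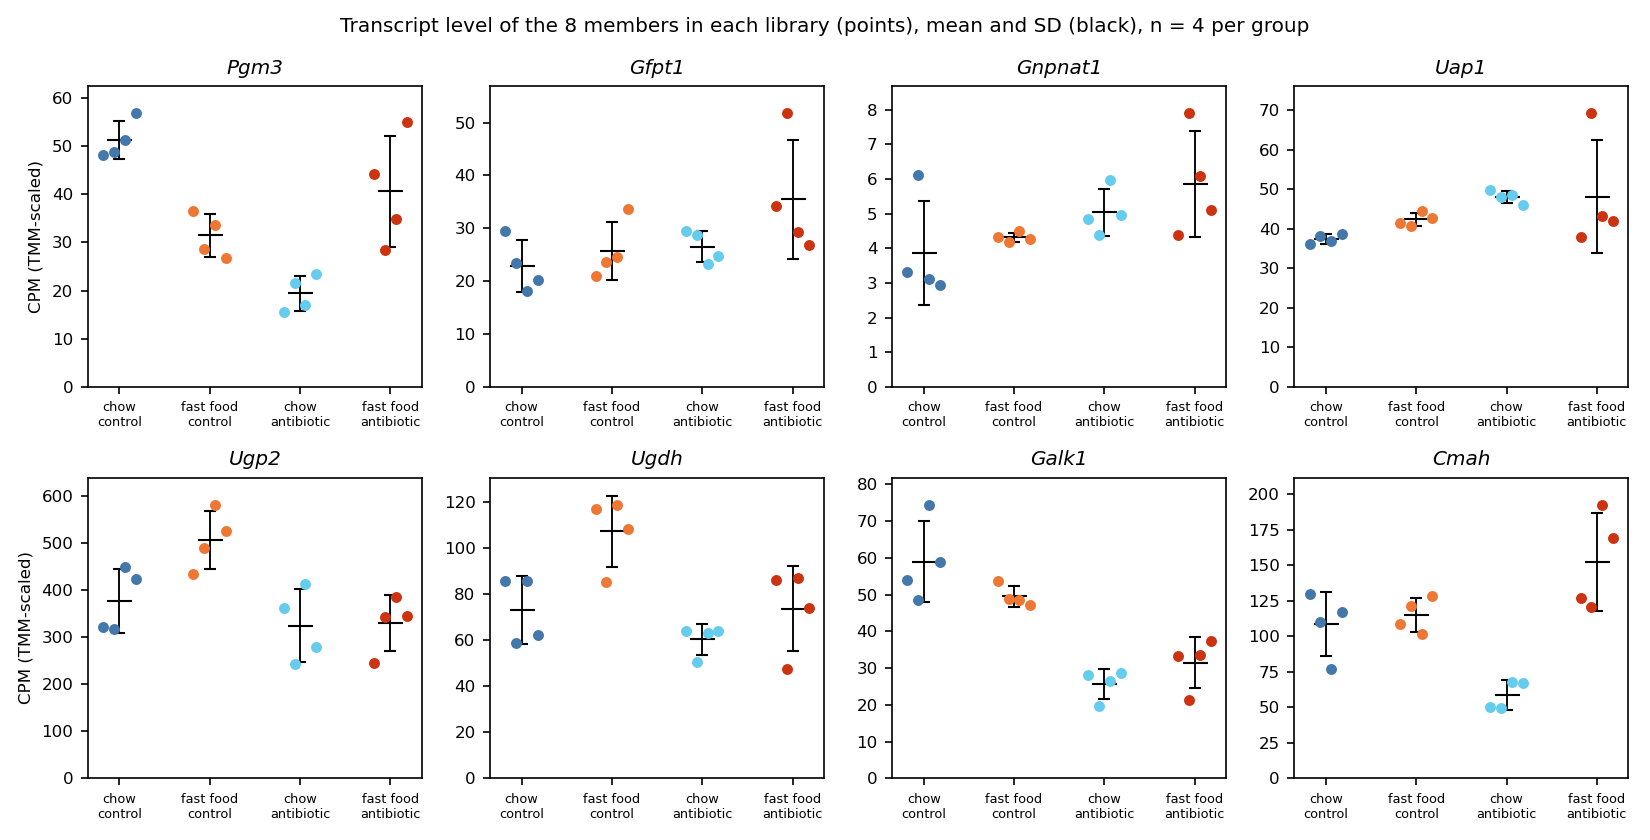
Level of each of the 8 genes (vertical axes, CPM from 0) in the 16 libraries, grouped by meal and water. Points are libraries in replicate order, and black marks are the mean and SD of 4. Pgm3, Galk1 and Cmah are lower in all 4 chow antibiotic libraries than in any chow control library, and Uap1 reaches 69.3 CPM in fast food antibiotic replicate 2.

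Pgm3 (ENSMUSG00000056131, chr9:86554377-86571842, minus strand, GRCm38) is the phosphomutase of the pathway. In replicates 1 to 4 it was at 48.1, 48.8, 51.4 and 56.8 CPM in the chow control group and at 36.6, 28.6, 33.7 and 26.8 CPM in the fast food control group. With antibiotic water it was at 15.6, 21.5, 17.1 and 23.4 CPM after chow and at 44.3, 28.4, 34.9 and 54.9 CPM after fast food. Every chow control library was thus above every fast food control library, and every fast food antibiotic library was above every chow antibiotic library. The log2 fold change of fast food over chow was -0.71 ± 0.18 (SE) in control water and 1.07 ± 0.18 in antibiotic water, opposite in sign. Antibiotic over control water gave -1.41 ± 0.18 after chow and 0.37 ± 0.18 after fast food. The interaction of meal and water was 1.78 ± 0.25. Ordered by mean, chow control was followed by fast food antibiotic, fast food control and chow antibiotic, and only the last of these neighbours did not overlap. Fast food antibiotic replicate 2, the library that stood apart, was the lowest of its group. Without those 3 libraries, each the highest of its group in acute phase transcripts, the meal difference in antibiotic water was 1.28 and the interaction 2.00.

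Exons of Pgm3 overlap those of Dop1a on the opposite strand, and no source used here gives the strand setting of the counting, so reads of the pair cannot be told apart in the shared stretch. Dop1a itself was at 72.3 ± 17.9 CPM in the chow control group and 113 ± 37.4 CPM in the chow antibiotic group (SD, n = 4 each), the opposite order to Pgm3. In the fast food groups it was at 60.7 ± 8.29 CPM with control water and 94.3 ± 38.1 CPM with antibiotic water. Its means thus stood in the same order as those of Pgm3 for the meal in control water and for the waters after fast food, and in the opposite order for the meal in antibiotic water.

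Gfpt1 (ENSMUSG00000029992, chr6:87042846-87092197, plus strand), which encodes the enzyme of the first and rate-limiting step, did not follow Pgm3. It was at 29.5, 23.4, 18.2 and 20.2 CPM in the chow control group, 21.0, 23.5, 24.6 and 33.6 CPM after fast food in control water, and 29.4, 28.7, 23.3 and 24.7 CPM in the chow antibiotic group. The fast food antibiotic libraries were at 34.1, 51.8, 29.4 and 26.8 CPM. All neighbouring groups overlapped, and the highest value was that of replicate 2 of the last group. Its log2 fold changes lay between 0.18 ± 0.20 and 0.47 ± 0.20 in the 4 comparisons of 2 groups. The meal difference in antibiotic water was 0.42 with all libraries and 0.12 without those 3 libraries.

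Gnpnat1 (ENSMUSG00000037722, chr14:45376334-45404913, minus strand), the acetyltransferase, was low, with 31 to 118 counts per library. Group means were 3.87 ± 1.5 CPM for chow control, 4.32 ± 0.127 for fast food control, 5.04 ± 0.667 for chow antibiotic and 5.86 ± 1.53 for fast food antibiotic. All neighbouring groups overlapped. Chow control replicate 2, the highest of its group in acute phase transcripts, was at 6.11 CPM, while the other 3 of its group were between 2.93 and 3.33 CPM. The difference of antibiotic over control water after chow was 0.39 ± 0.23 on the log2 scale, and 0.73 without the 3 libraries. Its exons overlap those of Styx on the opposite strand.

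Uap1 (ENSMUSG00000026670, chr1:170141938-170174957, minus strand), which makes UDP-GlcNAc, varied little within 3 of the groups. It was at 36.1, 38.1, 37.0 and 38.8 CPM in the chow control group, 41.6, 40.6, 44.7 and 42.7 CPM in the fast food control group, and 49.9, 48.1, 48.5 and 46.2 CPM in the chow antibiotic group. These 3 groups did not overlap one another. In the fast food antibiotic group, replicate 2 was at 69.3 CPM and the other 3 were at 38.0, 43.2 and 42.1 CPM. The log2 fold change of antibiotic over control water after chow was 0.36 ± 0.14, the opposite sign to Pgm3. The meal difference in antibiotic water was 0.00 ± 0.14 with all libraries and -0.28 ± 0.092 without the 3 libraries. With fast food antibiotic replicate 2 alone left out it was -0.24, and leaving out any other single library gave between -0.05 and 0.10.

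Ugp2 (ENSMUSG00000001891, chr11:21321138-21371201, minus strand), the source of UDP-glucose, was highest after fast food in control water. It was at 322, 318, 448 and 424 CPM in the chow control group, 434, 489, 582 and 525 CPM in the fast food control group, 362, 242, 413 and 279 CPM in the chow antibiotic group and 246, 344, 385 and 346 CPM in the fast food antibiotic group. Fast food control libraries lay above all fast food antibiotic libraries, and the other groups overlapped their neighbours. The log2 fold change of antibiotic over control water after fast food was -0.62 ± 0.18. With a model term for the rRNA-like share it was -0.28 ± 0.151, and the interaction moved from -0.40 to -0.05. The part of that share in the result, or of the depth that moved with it, was not tested.

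Ugdh (ENSMUSG00000029201, chr5:65413221-65435949, minus strand), which draws on the product of UGP2, was likewise highest in the fast food control group, at 107 ± 15.4 CPM. It was at 73.0 ± 14.7 CPM for chow control, 73.6 ± 18.5 for fast food antibiotic and 60.3 ± 6.68 for chow antibiotic. All neighbouring groups overlapped. The log2 fold change of fast food over chow was 0.55 ± 0.18 in control water and 0.29 ± 0.18 in antibiotic water. Between the 2 waters after fast food (107 and 73.6 CPM) the rRNA-like share and depth also moved, and their part was not tested. Chow antibiotic replicate 2 was at 50.3 CPM, while the other 3 of the group were between 63.2 and 63.9 CPM.

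Galk1 (ENSMUSG00000020766, chr11:116008457-116012719, minus strand), the galactose kinase, separated by water rather than by meal. It was at 54.1, 48.6, 74.5 and 58.9 CPM in the chow control group and 53.8, 48.7, 48.6 and 47.2 CPM in the fast food control group. With antibiotic water it was at 28.2, 19.8, 26.5 and 28.5 CPM after chow and 33.4, 21.3, 33.7 and 37.3 CPM after fast food. All 8 libraries of control water were above all 8 of antibiotic water. The log2 fold change of antibiotic over control water was -1.20 ± 0.17 after chow and -0.66 ± 0.16 after fast food. With the rRNA-like share as a model term these were -1.19 ± 0.155 and -0.48 ± 0.182. The meal differences were -0.25 in control water and 0.29 in antibiotic water, and the groups overlapped in both.

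Cmah (ENSMUSG00000016756, chr13:24327404-24477377, plus strand), the sialic acid hydroxylase, was lowest in the chow antibiotic group. It was at 130, 110, 76.6 and 117 CPM in the chow control group and 109, 122, 102 and 128 CPM in the fast food control group, which overlapped. With antibiotic water it was at 50.0, 49.6, 68.2 and 66.9 CPM after chow and 127, 121, 193 and 169 CPM after fast food, with no overlap. The log2 fold change of fast food over chow was 0.09 ± 0.18 in control water and 1.38 ± 0.18 in antibiotic water. Antibiotic over control water gave -0.89 ± 0.18 after chow and 0.40 ± 0.18 after fast food, and the interaction was 1.29 ± 0.25. Unlike Pgm3, Cmah differed little between the meals in control water.

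**Figure D2:**
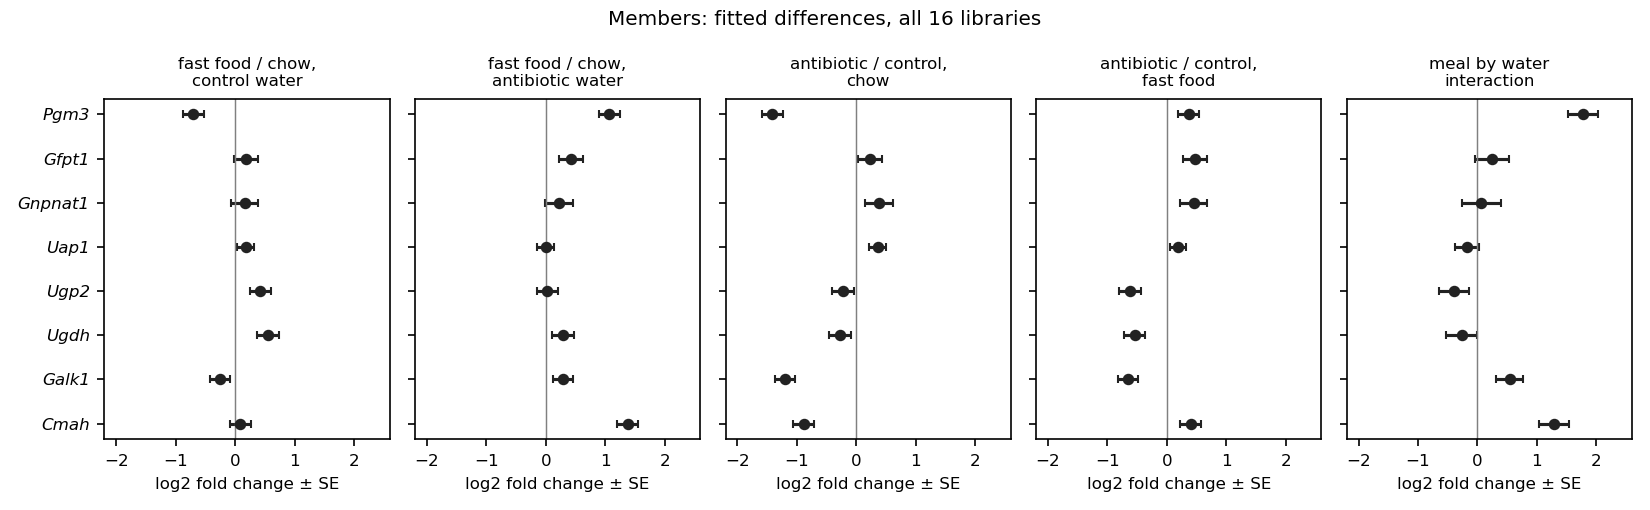
Fitted log2 fold changes of the 8 genes (horizontal axes) with their SE (bars) in 4 comparisons of 2 groups and for the interaction of meal and water, from a fit to all 16 libraries. Pgm3 moves from -0.71 to 1.07 between the meal comparisons of the 2 waters, and Cmah from 0.09 to 1.38.

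Counts of the 8 genes past an adjusted p of 0.05 are given beside the share of all 13180 genes past it (edgeR quasi-likelihood test, Benjamini-Hochberg), and nothing is read from them, since the same values chose the genes. In control water no gene passed for the meal, against a background of 0.243% higher and 0.334% lower. At an unadjusted p under 0.05, 1515 of all genes differed there, and 1 of the 8 passed with DESeq2 and in some other alternatives. In antibiotic water 2 passed as higher after fast food, Pgm3 and Cmah, and none as lower, against 7.78% higher and 5.87% lower. With antibiotic water after chow 3 passed as lower, Pgm3, Galk1 and Cmah, and none as higher, against 10.6% higher and 13.2% lower. After fast food 1 passed as lower, Galk1, against 3.77% higher and 2.22% lower. It no longer passed without fast food control replicate 1, 2 or 3 or fast food antibiotic replicate 2, or with the rRNA-like share in the model. With either term for that share 0 of all 13180 genes passed in this comparison, against 497 higher and 293 lower without a term. The interaction passed for Pgm3 and Cmah as higher, against 2.36% higher and 1.58% lower. The median log2 fold change of the 8 was -0.25 for antibiotic water after chow and -0.01 over all genes, and 0.29 and 0.03 for the meal in antibiotic water.

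The other genes of these pathways were taken from 12 lists that hold 100 genes beside the 8, of which 98 were tested. In the chow comparison of waters 13 fell and 7 rose with antibiotics, or 13.3% and 7.14% of the 98, against 13.2% and 10.6% of all genes. In the meal comparison in antibiotic water 6 rose and 5 fell, or 6.12% and 5.1%, against 7.78% and 5.87%. In control water 0 passed for the meal by edgeR, 15 were at an unadjusted p under 0.05, and 3 passed with DESeq2. After fast food 5 rose and 3 fell with antibiotic water (5.1% and 3.06%, against 3.77% and 2.22%), and 3 had an interaction past the threshold, all positive (3.06%, against 2.36%). The share that fell after chow was near that of all genes and the share that rose was below it, and nothing particular to these lists is read from them. The median of the 98 was between -0.07 and 0.05 in all of these.

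**Figure D3:**
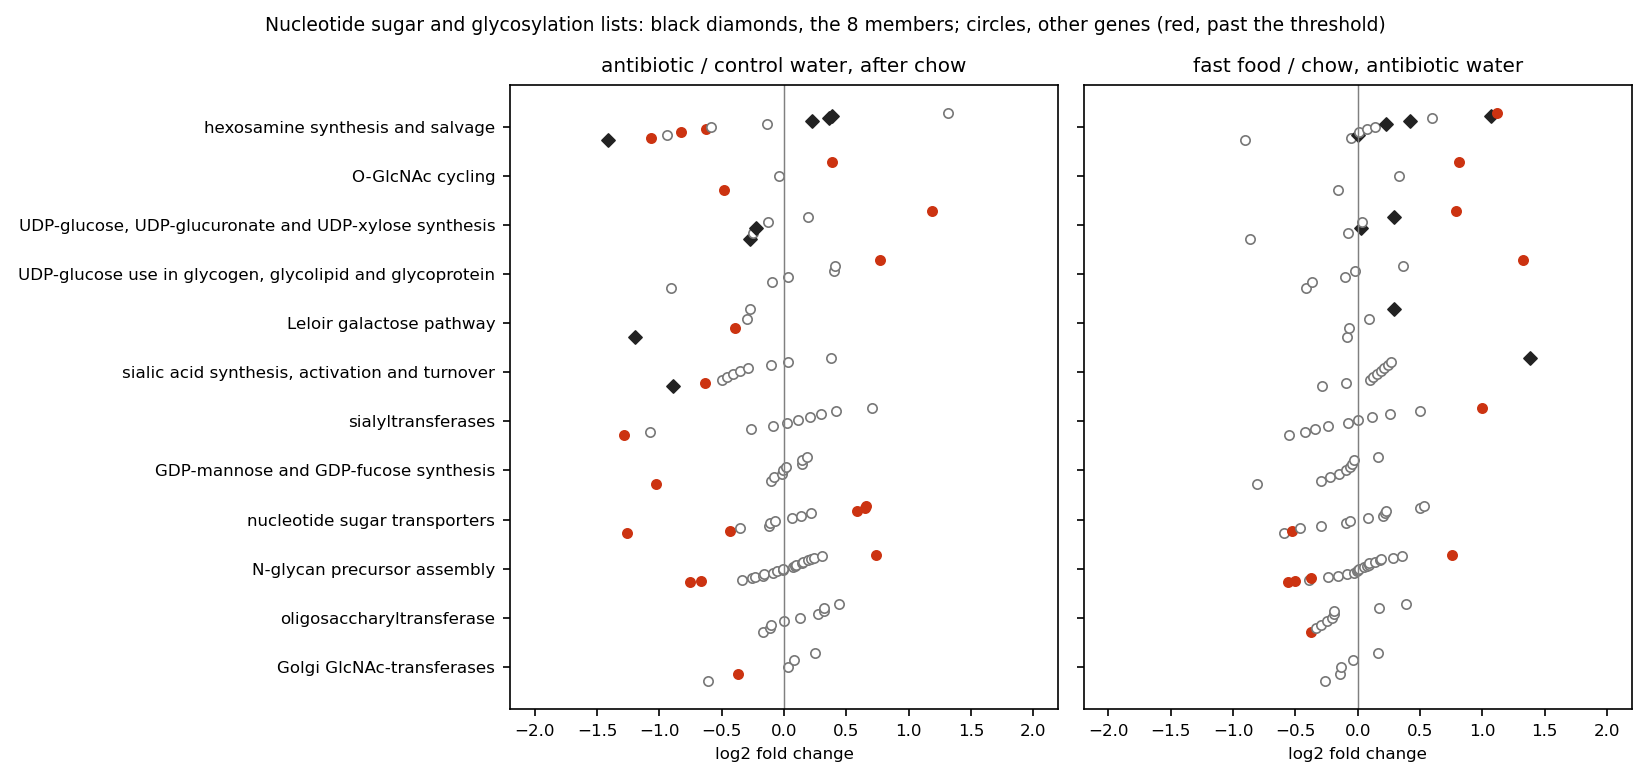
Log2 fold changes (horizontal axes) of the tested genes of 12 pathway lists, for antibiotic over control water after chow (left) and fast food over chow in antibiotic water (right). Black diamonds are the 8 genes described, and circles are the other genes, red where past an adjusted p of 0.05. In the left panel 13 red circles lie below 0 and 7 above it.

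Around Pgm3 and Uap1, in hexosamine synthesis and salvage, 3 of the 7 other genes fell with antibiotic water after chow and none rose, where 13.2% of all genes fell and 10.6% rose. Nagk, the kinase that salvages N-acetylglucosamine, fell from 13.8 ± 3.16 to 6.63 ± 0.628 CPM (log2 fold change -1.06 ± 0.18, edgeR adjusted p = 0.000745). Uap1l1, a paralog of Uap1, fell by 0.83 and Amdhd2, a deacetylase of the salvage branch, fell by 0.62 on the log2 scale (adjusted p = 0.0224 and 0.0215). Both calls were lost in the fit to the 2 groups alone and without chow control replicate 3 or chow antibiotic replicate 2 or 3, and that of Amdhd2 also without chow control replicate 4. Gfpt2, the paralog of Gfpt1, was near the limit of detection, with group means of 0.447 to 2.41 CPM, and passed in no comparison. In antibiotic water Gnpda1, which turns glucosamine-6-phosphate back to fructose-6-phosphate, rose after fast food (1.12 ± 0.35, adjusted p = 0.0431), a call lost when any 1 of 13 of the libraries was left out.

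UDP-GlcNAc is spent on proteins by OGT, which adds O-GlcNAc, and OGA removes it. Ogt rose after fast food in antibiotic water from 54.5 ± 13.2 to 96.0 ± 12.4 CPM (0.81 ± 0.16, edgeR adjusted p = 0.00607), without overlap of the groups. The call was lost in the fit to the 2 groups alone (adjusted p = 0.0526). In control water the difference was 0.24 ± 0.16 and did not pass. Oga rose with antibiotic water after chow (0.38 ± 0.10, adjusted p = 0.00962), where Ogt was at -0.04 ± 0.16.

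Around Ugp2 and Ugdh, Pgm2, a phosphoglucomutase, rose with antibiotic water after chow from 5.42 ± 0.883 to 12.7 ± 7.55 CPM (1.19 ± 0.30, edgeR adjusted p = 0.00916). Pgm2l1 rose after fast food when the water held antibiotics (0.79 ± 0.22, adjusted p = 0.0285), a call lost without chow antibiotic replicate 2 or 4 or fast food antibiotic replicate 1, 3 or 4. Gys2, the liver glycogen synthase that uses UDP-glucose, rose in the same comparison from 191 ± 45.5 to 479 ± 246 CPM (1.33 ± 0.33, adjusted p = 0.019), with overlapping groups, and lost its call without fast food antibiotic replicate 4 or replicate 2 of the chow antibiotic group. Uggt2, a glucosyltransferase of glycoprotein folding, rose with antibiotic water after both meals, by 0.77 ± 0.20 after chow and 0.90 ± 0.19 after fast food (edgeR adjusted p = 0.0098 and 0.0204). The second call was lost without fast food control replicate 1, 2 or 3 or fast food antibiotic replicate 4. It was also lost with the rRNA-like share in the model, as was every call between the waters after fast food.

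In the list around Galk1, the related kinase gene Galk2 fell with antibiotic water after chow (-0.40 ± 0.14, edgeR adjusted p = 0.047). That call was lost when any 1 of 12 libraries was left out. Galt, of the Leloir pathway, was at -0.28 ± 0.14 in the same comparison and did not pass.

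In sialic acid synthesis around Cmah, Cmas, which activates sialic acid to the form that CMAH uses, fell with antibiotic water after chow from 49.1 ± 7.57 to 31.5 ± 3.09 CPM (-0.64 ± 0.15, edgeR adjusted p = 0.0061). Gne, the first enzyme of the route, Nans and the transporter gene Slc35a1 passed in none of the 5 comparisons. Among 10 sialyltransferases St3gal3, which adds sialic acid to galactose, was also lowest in the chow antibiotic group. Its level was 63.1, 49.2, 52.3 and 55.6 CPM in the chow control group, 55.9, 49.2, 50.4 and 47.8 CPM in the fast food control group, 19.7, 24.1, 20.9 and 25.8 CPM in the chow antibiotic group and 54.9, 28.9, 49.3 and 46.5 CPM in the fast food antibiotic group. All chow antibiotic libraries were below all others. St3gal3 fell with antibiotic water after chow (-1.29 ± 0.16, adjusted p = 6.44e-05) and rose after fast food when the water held antibiotics (0.99 ± 0.16, adjusted p = 0.002), with an interaction of 1.11 ± 0.22 (adjusted p = 0.0136, and 0.0515 when a covariate for the rRNA-like share was added). After fast food St3gal5 (0.87 ± 0.16) and St3gal1 (1.09 ± 0.26) rose with antibiotic water (adjusted p = 0.00967 and 0.0293). Both calls were lost with the rRNA-like share in the model, as was every call in that comparison. The call of St3gal1 was also lost without fast food control replicate 1, 2 or 3 or fast food antibiotic replicate 2 or 4. Neu1, a sialidase, fell there (-0.50 ± 0.14, adjusted p = 0.0449), a call lost when any 1 of 8 libraries was left out.

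**Figure D4:**
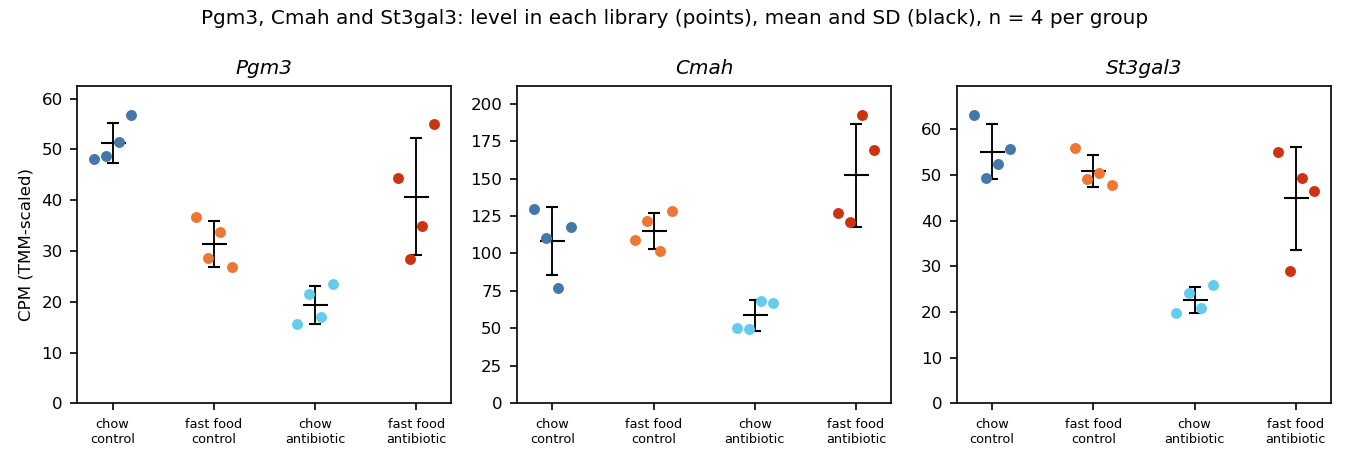
Level (vertical axes, CPM from 0) of Pgm3, Cmah and St3gal3 in the 16 libraries, by meal and water. Points are libraries, and black marks are the mean and SD of 4. In antibiotic water all fast food libraries lie above all chow libraries for each of the 3 genes, and in control water the order of Pgm3 is the opposite.

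Genes of the transporter list and of the lists of N-glycan building changed in both directions. The transporter list holds genes of the SLC35 family, and what each of them carries was not tested. Slc35d2, a transporter of UDP-GlcNAc, fell with antibiotic water after chow from 30.3 ± 5.25 to 12.7 ± 1.18 CPM (-1.26 ± 0.22, edgeR adjusted p = 0.000809) and after fast food (-0.90 ± 0.21, adjusted p = 0.028). The call after fast food was lost without fast food control replicate 1, 3 or 4 or fast food antibiotic replicate 1. Of 12 transporters 3 rose with antibiotics after chow, Slc35a4 (0.59 ± 0.20), Slc35b3 (0.65 ± 0.21) and Slc35b1 (0.66 ± 0.23), the last named after its values were seen, and Slc35c2 fell (-0.44 ± 0.14). After fast food Slc35c1 rose (0.75 ± 0.21), and Slc35b2 fell with antibiotics (-0.61 ± 0.16) and with the meal in antibiotic water (-0.53 ± 0.16). Of 21 genes of N-glycan precursor assembly, Alg14 (-0.75 ± 0.17, edgeR adjusted p = 0.00409) and Alg6 (-0.66 ± 0.17) fell and Alg2 rose (0.74 ± 0.25) with antibiotics after chow. In antibiotic water Alg6 rose after fast food (0.75 ± 0.17), and Alg1 (-0.50 ± 0.13), Alg5 (-0.38 ± 0.10) and Dpm3 (-0.56 ± 0.18) fell. Dhdds, which makes the dolichol carrier, rose with antibiotics after fast food (0.54 ± 0.13). Pmm1 (-1.02 ± 0.28), of GDP-mannose synthesis, the Golgi transferase gene Mgat4b (-0.37 ± 0.12) and Eogt (-0.48 ± 0.17) fell with antibiotics after chow. Among 9 oligosaccharyltransferase genes Rpn2 alone passed in any comparison, lower after the fast food meal with antibiotics (-0.37 ± 0.11, edgeR adjusted p = 0.039). Of the calls in these lists, only those of Slc35d2 and Alg14 after chow held under every alternative run, and each of the others under the naming rule was lost when 1 library was left out or in another alternative.

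Among 16 XBP1 and endoplasmic reticulum stress markers, 1 passed in 1 comparison. Dnajc3 rose with antibiotic water after chow (0.59 ± 0.19, edgeR adjusted p = 0.0306). That call was lost without chow control replicate 2, 3 or 4 or chow antibiotic replicate 3. In that comparison Xbp1 was at 0.69 ± 0.46 and Hspa5 at 0.42 ± 0.30, neither past the threshold. The counts do not separate spliced from unspliced Xbp1. The 16 markers summed to 2468 to 3719 CPM for chow control and 3349 to 4955 CPM for fast food control. The chow antibiotic group was at 3832 to 4074 CPM, above every chow control library. Fast food antibiotic replicate 2 was at 5317 CPM, the highest of the 16 libraries. The others of its group were at 2375 to 2797 CPM. Uap1 (69.3 CPM) and Gfpt1 (51.8 CPM) also peaked in replicate 2. Any part of these markers in the levels of Uap1 and Gfpt1 was not tested.

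Markers of cell types moved with the water and, in antibiotic water, with the meal. Of 8 Kupffer cell markers 5 fell with antibiotic water after chow and 5 after fast food, and their sum was 227 to 652 CPM in the chow control group, 272 to 378 in the fast food control group, 162 to 193 in the chow antibiotic group and 139 to 217 in the fast food antibiotic group. Of 8 stellate cell markers 4 fell after chow and 1 after fast food. Of the tested markers, 1 of 5 cholangiocyte and 1 of 2 lymphocyte markers fell after each meal, and 1 of 6 sinusoidal endothelial markers after chow. Of all genes 13.2% fell and 10.6% rose with antibiotic water after chow, and 2.22% fell and 3.77% rose after fast food. Of 6 hepatocyte markers 3 rose with antibiotic water after chow. The sum was 90412 to 122331 CPM for chow control and 146977 to 209038 CPM for chow antibiotic. It was mostly Alb, which alone averaged 77538 CPM in the chow control group. For the meal in antibiotic water 4 of 6 hepatocyte markers fell (median log2 fold change -0.53) and 3 of 8 stellate cell markers rose after fast food. There 1 of 6 sinusoidal endothelial markers rose and 1 of 5 tested neutrophil markers fell, where 7.78% of all genes rose and 5.87% fell. No marker of these lists was at 0 in all libraries. Their part in the levels of Pgm3, Galk1, Cmah and St3gal3 was not tested. Without the 3 libraries that were left out together, the difference between waters after chow was -1.51 for Pgm3, -1.30 for Galk1, -0.92 for Cmah and -1.38 for St3gal3.

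The 8 genes were also compared with one another within groups. Of 28 pairs, compared over 16 libraries as deviations from group means, none passed after adjustment over the pairs. With so few libraries this does not show that the genes vary independently. The lowest p was that of Gfpt1 with Galk1 (Pearson r = -0.751, permutation p = 0.0045, adjusted p = 0.126, Spearman rho = -0.726, permutation p = 0.00285, adjusted p = 0.0798). Without the 2 libraries farthest from the median r was -0.642, with a term for the rRNA-like share -0.696, and without fast food antibiotic replicate 2 -0.558. Ugdh with Galk1 was as large in size (r = 0.755, permutation p = 0.0146, adjusted p = 0.204, rho = 0.526, permutation p = 0.0629, adjusted p = 0.482), with 0.646 without the 2 farthest libraries, 0.733 with the rRNA-like term and 0.539 without fast food antibiotic replicate 2. The genes most like each member in these deviations, among 10434 candidates, were Coq7 for Pgm3 (r = 0.919), Osbp for Gfpt1 (0.932), Srp72 for Gnpnat1 (0.961), Sec22b for Uap1 (0.955), Cdk5rap1 for Ugp2 (0.899), Gclc for Ugdh (0.893), Tdrd7 for Galk1 (0.901) and Casc4 for Cmah (0.885). For Sec23b, the next most like Uap1, r was 0.951, and 0.485 when fast food antibiotic replicate 2 was left out. These values share library and depth, and are a description of the most alike of many genes.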

How the data were processed

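Raw read counts per Ensembl gene were deposited for 16 liver libraries, as whole numbers without normalization. Per the submitters' processing notes the tools were STAR and HTSeq, with cutadapt, FastQC, edgeR and DESeq2, on GRCm38.p6. No source used here gives the annotation release, the strand setting or the treatment of multi-mapping reads. Symbols and exon lengths came from GENCODE M21, which named 24942 of 25006 identifiers.

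Genes were filtered with filterByExpr (minimum count 10), scaled with TMM factors and fitted with edgeR 4.0.16 in R 4.3.3 (quasi-likelihood, robust dispersion, 1 mean for each of 4 groups, two-sided), with Benjamini-Hochberg adjustment over 13180 genes and a threshold of 0.05. The script was tested on simulated data. Log2 CPM used a prior count of 2. Replicates of a group differed by more than sampling noise (chi-square per degree of freedom at least 15.4).

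The 8 genes, the lists and the alternatives were chosen with earlier results of these data known. Named beside the 8 genes were up to 4 genes of lowest p past the threshold per list and comparison, and a fixed set reported either way (Gfpt2, Uap1l1, Nagk, Amdhd2, Ogt, Oga, Gys2, Galt, Galk2, Gne, Nans, Cmas, Slc35a1, Xbp1 and Hspa5). A gene that the rule took is not reported here and is left out of the list counts. Likeness was taken among genes whose mean log2 CPM was 1 or more. Alternatives were DESeq2 1.42.0, RLE factors, 2 other filters, fits to 2 groups, a replicate block, leaving out libraries, and terms for the rRNA-like share, split at 1%.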

Additional observations from a re-analysis of the deposited data

Results flagged for a closer look

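Among the 32 combinations of gene and group examined for a library far from the other 3, 3 stood out, and chance alone gives about 1 in 20. Gnpnat1 was at 6.11 CPM in chow control replicate 2, Uap1 at 69.3 CPM in fast food antibiotic replicate 2, and Ugdh at 50.3 CPM in chow antibiotic replicate 2. The first 2 of these libraries were the highest of their own groups in acute phase transcripts.

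The effect of the meal differed between the waters by the interaction term for 3 of the other pathway genes. The log2 interaction was 1.11 for St3gal3, 0.93 for Eogt and 0.88 for Dhdds. That of Pgm3 was 1.78 and that of Cmah 1.29, given as a description since these genes were chosen with the values known. Eogt adds O-GlcNAc to secreted proteins, and Dhdds makes the dolichol carrier of N-glycan precursors. The Eogt call was lost when any 1 of 12 libraries was left out, with no filter, with the replicate block and with either term for the rRNA-like share. The Dhdds call was lost with either of those terms, and the St3gal3 call with the share as a covariate.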

How the results depend on the processing

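Counts of the 8 genes past the threshold changed as follows. For the meal in control water 0 became 1 with DESeq2, the 2-group fit, the replicate block and without the 3 libraries highest in acute phase transcripts in their groups (0 to 1 leaving out 1 library). Over all genes 32 higher and 44 lower became 166 and 133 with DESeq2 and 206 and 159 in the 2-group fit. They became 32 and 33 with the replicate block and 66 and 94 without the 3 libraries. For the meal in antibiotic water 2 became 5 without the 3 libraries (2 to 4 leaving out 1), for antibiotics after chow 3 became 5, and for the interaction 2 became 4 (2 to 4). Calls over all genes rose there too, from 1026 higher and 774 lower to 1531 and 1675 for the meal in antibiotic water. For antibiotics after chow they went from 1393 and 1745 to 1950 and 1997, and for the interaction from 311 and 208 to 915 and 936. For antibiotics after fast food 1 became 3 with DESeq2 and the replicate block, 2 with RLE factors, the stricter filter, the 2-group fit and without the 3 libraries, and 0 with either term for the rRNA-like share (0 to 2). The 497 higher and 293 lower of all genes became 846 and 685 with DESeq2, 421 and 317 with the replicate block, and 0 with either term. Nothing is read from the counts of the 8, since the same values chose the genes. Uap1 turned to -0.28 for the meal in antibiotic water without the 3 libraries.

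For the other pathway genes, 0 calls for the meal in control water became 3 with DESeq2, 4 in the 2-group fit and 2 without the 3 libraries (0 to 3 leaving out 1). The 11 for the meal in antibiotic water became 1 in the 2-group fit and 25 without the 3 libraries (3 to 24). The 20 for antibiotics after chow ranged from 10 to 29 leaving out 1. The 8 after fast food became 14 with DESeq2 and 0 with either share term (1 to 10), where 0 of all 13180 genes passed. The 3 interactions became 5 with DESeq2, 18 without the 3 libraries and 0 with the share as a covariate (2 to 13). Among all genes 311 higher and 208 lower interactions became 568 and 549, 915 and 936, and 86 and 57 in these 3 settings. For the meal in antibiotic water 1026 higher and 774 lower became 133 and 96 in the 2-group fit and 1531 and 1675 without the 3 libraries. Counts of all genes thus moved in the same direction there, and nothing particular to these lists is read from the changes. The causes were not tested.

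Replicate numbers did not pair the libraries: same-numbered libraries had correlations of -0.222 to 0.359, and 1 of 16 correlated best with its own number. Depth limits Gnpnat1 (31 counts at least).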
